A study of Homo sapiens with 10 samples.

Results

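The netrins are secreted guidance proteins, and NTN4 had by far the highest level of the family in PC3 cells, with each library exposed to an LXR agonist above each control library. The 10 genes described here are the netrins NTN1, NTN3, NTN4 and NTN5 and the netrin receptors DCC, NEO1, UNC5A, UNC5B, UNC5C and UNC5D, taken by gene name from a table of 62656 genes. The family was assembled around NTN4 because its change with treatment was already known, so the NTN4 difference is given as a description with its error and without a test. PC3 is a human prostate cancer line that was established from a bone metastasis. The cells were starved overnight and then kept for 24 h in RPMI-1640 medium with L-glutamine and either DMSO as vehicle or GW3965 at 1 µM, a synthetic compound that activates the liver X receptors (LXRs). There were 5 libraries per condition, all from this single line, and the labels do not say whether they came from separate cultures, so the error between libraries may be technical.

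Netrins share their amino-terminal part with laminins, the cross-shaped proteins of basement membranes. NTN1, which guides growing axons, binds DCC and its relative neogenin (NEO1) as well as the UNC5 receptors. DCC and the UNC5 proteins are called dependence receptors because they can promote cell death when no ligand is bound. NTN4 is nearer to laminin beta chains than the other netrins are. It is a basement membrane component that binds the laminin gamma 1 chain and can disturb the assembly of laminin networks.

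The values were RPKM, that is reads per kilobase of gene after scaling between libraries, which allows levels of different genes to be compared. The reads behind them were recovered from the values, and the libraries held from 30431690 to 41638859 reads. On the first principal component of the reads, DMSO library 1 and GW3965 libraries 1 and 2 stood apart, with scores of 17.7 to 19.7 against at most 3.91 for the rest. DMSO library 4 had the lowest score, -21.9, with -11.8 for the next lowest. The treatment label was checked on LXR target genes: the cholesterol transporters ABCA1 and ABCG1 and the lipogenic factor SREBF1 rose by 2.29, 2.13 and 0.74 on the log2 scale with GW3965 (limma adjusted p = 6.30e-04, 1.24e-04 and 0.00362). SREBF1 did not pass with the replicate number as a block (limma adjusted p = 0.0643) or without the 3 libraries with high scores (limma adjusted p = 0.0897). The epithelial label was matched by the keratins KRT8, KRT18 and KRT19 and by EPCAM, whose summed level lay between 196 and 263 RPKM, while the luminal secretory gene KLK3 had 0 reads in each library. Markers of fibroblasts and leukocytes summed to at most 0.302 and 0.0962 RPKM. Among the endothelial markers, PECAM1 and KDR had means of 0.604 and 1.08 RPKM. VWF and CDH5, of the same list, had 7 and 6 reads over the DMSO libraries and 11 and 5 over the GW3965 libraries.

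NTN4 (ENSG00000074527) codes for a protein and lies on chromosome 12 (GRCh38, GENCODE 29), where it runs on the − strand between bases 95657807 and 95791152. The sequence in front of its outermost RefSeq start, at base 95791155 of GRCh38.p14, is shown because LXRs act on promoters as heterodimers with RXR, on repeats of the 6 letters AGGTCA. The window covers the 250 bases before that start, chr12:95791156-95791405, on the − strand, 5′ to 3′, and capitals mark these letters as they read on the opposite strand.

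NTN4 upstream: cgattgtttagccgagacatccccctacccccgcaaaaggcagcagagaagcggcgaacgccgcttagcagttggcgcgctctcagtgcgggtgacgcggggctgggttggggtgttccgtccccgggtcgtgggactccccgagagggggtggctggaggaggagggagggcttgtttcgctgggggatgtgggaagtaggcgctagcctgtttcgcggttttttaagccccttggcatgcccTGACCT

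The window held the 6 letters 1 time on either strand, in the last 6 bases before the start. They occurred in 12.1% of 35116 windows of 250 bases before RefSeq starts. The full element, a pair of these repeats with a spacer of 4 bases (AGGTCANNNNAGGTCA), occurred on either strand in 0.0142% of the windows and not in this one. RefSeq gives a second start of NTN4 at 95790764, and the 250 bases before it did not hold the letters. Of the other members, NEO1 held them in its window. Windows were found for 6 of the 10 members. Neither motif was found for ABCA1, ABCG1 or SREBF1, but whether windows were available for these genes was not recorded. A match of letters is a description of the sequence and not a site of binding, and the table of genes does not tell which start the reads came from.

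NTN4 stood at 20.7, 22.4, 22.0, 23.2 and 21.2 RPKM in DMSO libraries 1 to 5. In GW3965 libraries 1 to 5 it stood at 35.1, 36.0, 34.8, 34.8 and 37.9 RPKM. The groups were apart, and 11.6 RPKM lay between the highest DMSO and the lowest GW3965 value. The means were 21.9 ± 0.989 RPKM with DMSO and 35.7 ± 1.33 RPKM with GW3965 (SD, n = 5), which is 1.63-fold, or 0.70 (SE 0.05) on the log2(RPKM + 0.1) scale. This difference chose the gene and carries no test here. In RNA of whole cultures, a higher level in every cell cannot be told apart from a higher level in a part of the cells.

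**Figure D1:**
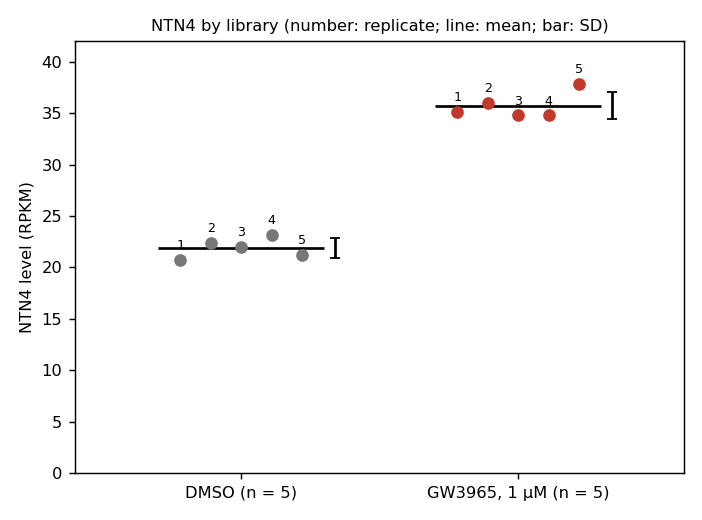
NTN4 level in RPKM (vertical axis) in each of the 5 DMSO and 5 GW3965 libraries, with the replicate number above each point, the group mean as a line and the SD as a bar. The DMSO libraries lie between 20.7 and 23.2 RPKM and the GW3965 libraries between 34.8 and 37.9 RPKM.

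The NTN4 values rested on 2907 to 4150 reads per DMSO library and 5213 to 6273 reads per GW3965 library, so counting error alone was between 1.26 and 1.85% per library. The coefficient of variation between libraries was 4.52% with DMSO and 3.74% with GW3965. Within its groups NTN4 varied little for a gene of its level: its SD on the log2 scale was 0.059, against a median of 0.141 over the 500 tested genes nearest in mean level. NTN4 was chosen with its result in this comparison known, and a small spread is part of that result, so this is a description. NTN4 was higher than 92.7% of the 20402 tested genes in mean RPKM. Without the 3 libraries that stood apart at the upper end of the first principal component, its log2 fold change was 0.69, and without DMSO library 4, at the lower end, it was 0.72.

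Over all tested genes, 0.157% passed the threshold of an adjusted p under 0.05 by limma. Of these, 30 genes (0.147%) were higher and 2 (0.00980%) lower with GW3965. NTN4, 1 of the 10 members, was among the 30, at place 16 by log2 fold change. Groups of libraries did not overlap, with GW3965 higher, for 1.35% of the tested genes. Since NTN4 entered through this comparison, nothing is read from these shares. Another annotated gene, the pseudogene PGAM1P5, runs on the + strand from 95551582 to 95673999 and so overlaps the 3′ end of NTN4. It held 1038 reads over the DMSO libraries and 1103 over the GW3965 libraries, against 17020 and 27978 for NTN4. The libraries keep the strand, and the strand setting of the counting is not given in the sources used here.

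The other 3 netrins were low, with 18 to 74 reads per library, and NTN4 made up 93.7 to 98.2% of the summed RPKM of the 4 netrins in a library. NTN3 was the only other member with a mean of at least 0.5 RPKM, the minimum for the test. NTN3 lies on chromosome 16 from 2471499 to 2474145 on the + strand. It stood at 0.807, 0.507, 0.604, 0.492 and 0.649 RPKM in DMSO libraries 1 to 5 and at 0.659, 0.595, 0.616, 0.413 and 0.367 RPKM in GW3965 libraries 1 to 5, from 26 to 61 reads per library. The groups overlapped, and the log2 fold change of -0.19 (SE 0.21, 95% interval -0.65 to 0.28) did not pass the test (limma adjusted p = 0.933). Leaving out DMSO library 1 gave -0.09, and leaving out GW3965 library 4 or 5 gave -0.12 or -0.08.

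NTN5 (chromosome 19, from 48661407 to 48673081, − strand) had a mean of 0.484 RPKM, just under the minimum, with 0.391 to 0.604 RPKM with DMSO and 0.238 to 0.627 RPKM with GW3965. NTN1, the axon guidance netrin, lies on chromosome 17 from 9021542 to 9244000 on the + strand. It had 18 to 46 reads per library and means of 0.145 ± 0.0365 and 0.146 ± 0.0445 RPKM with DMSO and GW3965 (SD, n = 5). In a fit over all 47537 genes with a value above 0, of which 0.0442% passed the threshold, NTN5 had a log2 fold change of -0.05 (95% interval -0.56 to 0.45) and NTN1 of 0.00 (95% interval -0.42 to 0.42). Their limma adjusted p were 0.985 and 1.00. The scale understates changes of genes this low. The standard error for NTN1 was 0.34 with a pseudocount of 0.01 and 0.26 with voom on the recovered reads, against 0.05 and 0.06 for NTN4. Whether a change of NTN1 like that of NTN4 could be detected at this depth was not tested.

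Reads of 4 of the 6 receptors were found in every library, all at low levels, and the receptors summed to between 0.644 and 0.936 RPKM per library. NEO1, which binds netrins and also the repulsive guidance molecules, was the highest of them by mean level. The gene lies on chromosome 15 from 73051710 to 73305206 on the + strand. It stood at 0.242, 0.220, 0.260, 0.336 and 0.345 RPKM in DMSO libraries 1 to 5 and at 0.278, 0.252, 0.370, 0.295 and 0.273 RPKM in GW3965 libraries 1 to 5. The groups overlapped, and the log2 fold change was 0.05 (95% interval -0.34 to 0.44, limma adjusted p = 0.977).

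UNC5A, which mediates repulsion and carries a death domain, was the receptor with the highest log2 fold change. The gene lies on chromosome 5 from 176810477 to 176880898 on the + strand. It stood at 0.215, 0.230, 0.207, 0.231 and 0.250 RPKM in DMSO libraries 1 to 5 and at 0.225, 0.255, 0.318, 0.268 and 0.400 RPKM in GW3965 libraries 1 to 5. In 4 of 5 GW3965 libraries UNC5A lay above all DMSO libraries, and GW3965 library 1 lay among them. These values came from 27 to 42 reads per DMSO library and 33 to 56 per GW3965 library. The log2 fold change of 0.25 (SE 0.17, 95% interval -0.13 to 0.64) did not pass the test (limma adjusted p = 0.913), and it was 0.16 without GW3965 library 5.

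UNC5C and UNC5D, the other death domain receptors with reads in each library, had means of 0.149 and 0.0813 RPKM. UNC5C ranged from 0.0959 to 0.214 RPKM with DMSO and from 0.0924 to 0.267 RPKM with GW3965, and its highest values in both groups were those of library 1. Its log2 fold change was 0.16 (95% interval -0.32 to 0.64, limma adjusted p = 0.932). It was 0.03 without GW3965 library 1, 0.10 without DMSO library 4 and 0.27 without DMSO library 1 or GW3965 library 5. UNC5D ranged from 0.0560 to 0.101 RPKM with DMSO and from 0.0718 to 0.0899 RPKM with GW3965, with a log2 fold change of 0.00 (95% interval -0.27 to 0.27, limma adjusted p = 0.999). Of the 6 members below the minimum that were given a fold change, 0 passed the threshold by limma, 0 passed with voom on the recovered reads, and limma gave an unadjusted p under 0.05 for 0 of them.

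DCC, the receptor through which NTN1 attracts axons, had 22 reads over the DMSO libraries and 27 over the GW3965 libraries. Of these, 13 came from DMSO library 5 and 15 from GW3965 library 1, and the other libraries held at most 6. UNC5B had 4 reads over each group and at most 2 in a library, which is under a limit of 3 reads. No fold change is given for either gene. For these receptors the depth allows no statement on a change.

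**Figure D2:**
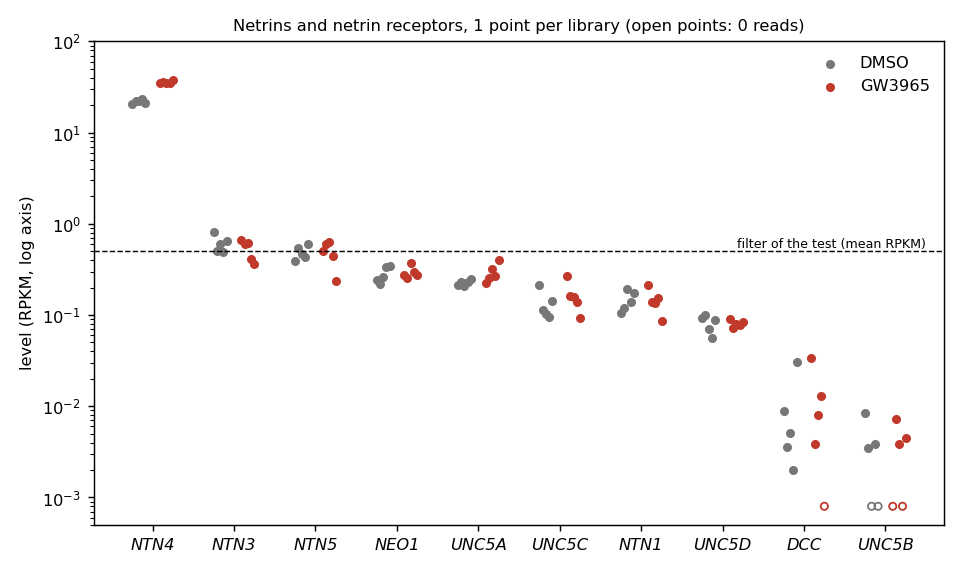
Levels of the 10 genes in RPKM (vertical log axis), 1 point per library, DMSO in grey and GW3965 in red, ordered by mean level, with open points at the bottom for libraries without reads and a dashed line at a mean of 0.5 RPKM. NTN4 lies at 20.7 to 37.9 RPKM with separate groups, and the other genes lie at or under 0.807 RPKM with overlapping groups.

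By mean level over the 10 libraries the order was NTN4, NTN3, NTN5, NEO1, UNC5A, UNC5C, NTN1, UNC5D, DCC and UNC5B. NTN4 was 50.5 times as high as NTN3, and their ranges did not overlap. UNC5D was 7.51 times as high as DCC, also without overlap. All other neighbours in this order overlapped in range. NTN3 lay above NTN5 in 7 of 10 libraries, NEO1 above UNC5A in 7 of 10 and UNC5C above NTN1 in 5 of 10, so these places are not settled by the spread between libraries.

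Other genes of the netrin pathway were described from 66 genes in 6 lists, of which 51 were tested. None of the 51 passed the threshold by limma, against 0.157% of all tested genes, and 1 (ITGA2) passed with voom on the recovered reads. An unadjusted p under 0.05 was found for 6 of the 51, against 6.99% of all tested genes. The median log2 fold change was 0.01, against 0.00 over all tested genes, and 29 of 51 were positive, against 51.1% of all tested genes.

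The list with the highest median log2 fold change, 0.13, was that of other netrin binding receptors, of which 6 of 8 genes were tested and 5 were positive. ITGA2, which pairs with ITGB1 in a receptor for collagen and laminin, had 10.6 ± 1.49 RPKM with DMSO and 14.7 ± 0.948 RPKM with GW3965 (SD, n = 5). The log2 fold change of 0.48 (SE 0.09) did not pass the test (limma adjusted p = 0.118). ITGA3, the partner of ITGB1 in a laminin receptor, singled out after its values were seen, had 75.6 ± 5.88 and 93.4 ± 4.16 RPKM (SD, n = 5) and a log2 fold change of 0.31 (limma adjusted p = 0.128). DMSO and GW3965 libraries were apart for both genes, as for 1.84% of all tested genes in either direction. With the scores on the first principal component added as a covariate, both passed (limma adjusted p = 0.0391 for ITGA2 and 0.0183 for ITGA3), in a fit where 146 of all tested genes passed, against 32 without the covariate. The lowest of the list was ITGA6, a subunit of the laminin receptors with ITGB1 or ITGB4, at -0.03 (limma adjusted p = 0.957). MCAM, a cell adhesion molecule that also binds netrins, had 5.07 and 5.18 RPKM.

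Among the cytoplasmic partners of netrin receptors, 22 of 23 genes were tested, 11 positive and 11 negative, with a median log2 fold change of 0.00. MAP1B, a microtubule-associated protein, was at the upper end with 0.23 (limma adjusted p = 0.503) and the ubiquitin ligase SIAH1, which acts on DCC, at the lower end with -0.08 (limma adjusted p = 0.956). The kinases PTK2 and SRC, which relay DCC signals, were well above the receptors in level, with means of 16.6 and 21.0 RPKM. PTK2 was the third pathway gene whose groups were apart, at 15.9 ± 0.680 RPKM with DMSO and 17.3 ± 0.379 RPKM with GW3965 (SD, n = 5), and it did not pass the test (limma adjusted p = 0.580). In the list of death signalling by dependence receptors, 5 of 6 genes were tested, and their log2 fold changes lay between -0.05 for CASP9 and 0.05 for APPL1 (lowest limma adjusted p = 0.959). DAPK1, the kinase through which UNC5B can signal death, had 1 read over all libraries. Of the netrin-G proteins and their ligands, NTNG2 was at 0.16 and LRRC4 at -0.13 (lowest limma adjusted p = 0.836), and of the other ligands RGMB alone was tested, at 0.05 (limma adjusted p = 0.941).

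**Figure D3:**
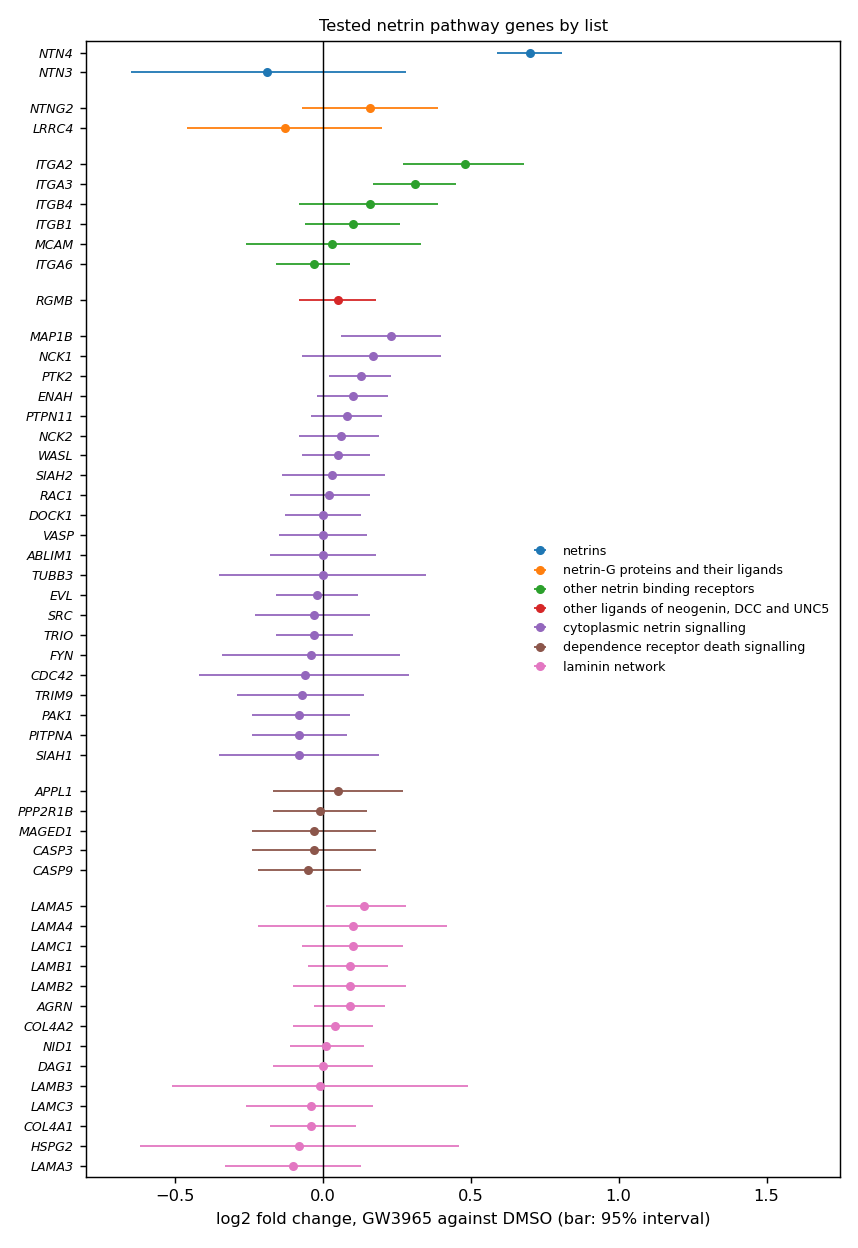
Log2 fold change of GW3965 against DMSO (horizontal axis) with its 95% interval for the tested genes reported here, grouped by list. Of the members, NTN4 is at 0.70 and NTN3 at -0.19, and the highest of the other pathway genes is ITGA2 at 0.48, with most of the rest around 0.

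The laminin network, the binding partner of NTN4, was expressed with several of its chains. Of 18 genes 15 were tested, 10 of them positive, with a median log2 fold change of 0.04. The lowest value was -0.10 for LAMA3 (limma adjusted p = 0.924). LAMC1, the gamma 1 chain that NTN4 binds, had 13.3 ± 1.43 RPKM with DMSO and 14.2 ± 0.767 RPKM with GW3965 (SD, n = 5), and its groups overlapped (limma adjusted p = 0.875). The ratio of NTN4 to LAMC1 was 1.41, 1.96, 1.70, 1.56 and 1.68 in DMSO libraries 1 to 5 and 2.30, 2.56, 2.50, 2.41 and 2.87 in GW3965 libraries 1 to 5. The ratios of the groups did not overlap, with means of 1.66 ± 0.200 and 2.53 ± 0.218 (SD, n = 5). With DMSO the NTN4 level was near that of the beta 2 chain gene LAMB2 (21.6 RPKM), and with GW3965 near that of AGRN (36.1 RPKM), which encodes the matrix proteoglycan agrin. This ratio contains the values by which NTN4 was chosen and is a description.

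The genes around NTN4 were compared to see how far along the chromosome a difference reached. In GENCODE 29, 32 other genes lie at least in part within 500 kb of NTN4, and 12 of them were tested. None of the 12 passed the threshold by limma or with voom, against 0.157% of all tested genes by limma. At that share, none called among 12 genes says little. An unadjusted limma p under 0.05 was found for 2 of them (FGD6 and RF00019), against 6.99% of all tested genes. The median log2 fold change of the 12 was -0.02.

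The 9 genes with at least 200 reads over all libraries lay between -0.12 for SNRPF, a spliceosome component, and 0.21 for FGD6, a guanine nucleotide exchange factor (lowest limma adjusted p = 0.684). VEZT, METAP2, PGAM1P5 and LTA4H had log2 fold changes of 0.09, 0.13, 0.09 and 0.05, and ELK3 and CDK17 of -0.10 and -0.05. AC018475.1, a processed pseudogene whose reads may belong to near-identical copies, was at 0.01. The other 3 were short genes with few reads: RF00019 had 28 reads over the DMSO and 7 over the GW3965 libraries (limma adjusted p = 0.561), CBX3P5 had 56 and 46, and MIR3685 had 8 and 5. The intervals of all 9 genes with more reads ended below that of NTN4, which started at 0.59. NTN4 was chosen for its difference, so this is a description and not a test.

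**Figure D4:**
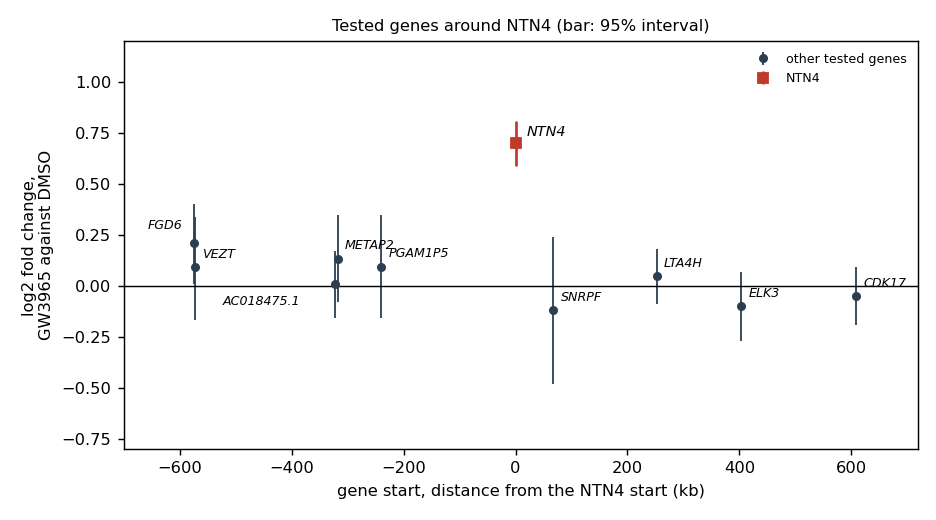
Log2 fold change of GW3965 against DMSO (vertical axis) with its 95% interval for NTN4 and 9 tested genes around it, against the distance of their starts from that of NTN4 in kb. NTN4 is at 0.70, the others lie between -0.12 and 0.21, and 3 tested genes with under 200 reads are not drawn.

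The 5 tested genes whose values over the 10 libraries were most like those of NTN4, by Pearson's correlation of log2(RPKM + 0.1), were KLF4, FASN, STK39, AC004817.3 and SLC25A20, with r from 0.97 to 0.99. All of them passed the threshold in the direction of NTN4. These r mostly restate the shared difference between the conditions and are given as a description. After the group means were removed, the same 5 genes had r from -0.03 to 0.65 with NTN4. By these deviations alone the nearest genes were GNPDA1 with an r of 0.94, C3orf18 with 0.92, and SLC15A4, AC139795.1 and ESPN with 0.91 each. Their log2 fold changes lay between -0.20 and 0.14 and did not pass the test, the lowest limma adjusted p being 0.762. These r were the highest picked from 20402 tested genes over 10 libraries, where 9 genes reached 0.9, and whether they exceed chance was not tested. Over the 31 other genes past the threshold, r of the deviations with NTN4 had a median of 0.02.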

How the data were processed

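The authors aligned single reads with Hisat2, counted them per annotated gene and deposited RPKM values with 1 column per library. The methods name the mouse genome, the submitters' processing notes name hg38, HISAT2 2.1.0 and HTSeq 0.11.2, and the gene identifiers are human. The annotation release is not given in the sources used here. Each gene's deposited RPKM values were whole multiples of 1 step, from which reads were recovered: 100% of values above 0 were whole within 0.01 reads. The library factors were median-of-ratios size factors, to within 8.88e-16. Libraries were assigned by their titles.

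Genes whose mean reached 0.5 RPKM (20402) were tested two-sided on log2(RPKM + 0.1) with the trended empirical Bayes fit of limma 3.58.1 under R 4.3.3, with Benjamini-Hochberg adjustment over all of them and a threshold of 0.05. This scale understates changes of low genes. Of the 10 members 2 were tested, and 6 of the other 8 were fitted over all 47537 genes with a value above 0. The fit was tried on simulated reads of genes that reached 0.5 RPKM, drawn independently per library with the same dispersion for all genes. That trial does not cover the members below this mean. Members and lists were chosen with earlier results of these data known. HJV is listed as HFE2. Named genes are the members, the pathway genes past the threshold or at either end of their list, tested neighbours, 3 LXR targets and the 10 genes most like NTN4. Others are background or comparisons. One such pathway gene was left out here. No 2 libraries of a group were near-identical, with a chi-square per degree of freedom of at least 6.63. Alternatives were other pseudocounts, filters and scalings, the replicate number as a block, weights per library, no trend, and each library left out. Added after the data were seen were voom on the recovered reads, the loss of 3 libraries and a principal component as covariate. Counting error does not cover amplification, since the reads carry no molecular identifiers. Upstream sequences are from RefSeq, GRCh38.p14.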

Additional observations from a re-analysis of the deposited data

Results flagged for a closer look

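Of 72 sets of 5 library values examined on the log2 scale, 3 had a single value far from its 4 companions, where chance alone gives about 3.60, 1 in 20. The gap to the nearest library, as a share of the range, was 0.738 for DCC, highest in DMSO library 5 with 13 reads against 1 to 4 in the others. It was 0.719 for VEZT, lowest in DMSO library 4 with 4.68 RPKM against 6.42 to 7.26 RPKM, and 0.710 for CBX3P5, lowest in the same library with 4 reads against 9 to 15. None of the groups of NTN4 was among them.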

How the results depend on the processing

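NTN4 had a log2 fold change between 0.67 and 0.72 over 22 alternatives, from 0.68 to 0.72 when 1 library was left out. None of the other members that were fitted passed the threshold under these alternatives. The number of genes past the threshold over all tested genes, 32, depended on the setting. It was 21 without a filter, 20 without a trend, 56 with library weights, 63 with voom, 18 without the 3 libraries with high scores, 146 with the principal component as covariate, and from 17 to 38 when 1 library was left out. Leaving out GW3965 library 2 or 4 gave 17, GW3965 library 3 gave 19, GW3965 library 5 gave 21 and DMSO library 3 gave 18. The count was 32 without DMSO library 1 and 38 without DMSO library 4. Why the count moved was not tested. Of the other pathway genes, 1 passed with voom and 2 with that covariate, against 0 otherwise (ITGA2 at 0.48 and 0.46 on the log2 scale).

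Same-numbered libraries correlated in their deviations from -0.14 to 0.16 over 5 pairs, and 2 pairs were over 0.1. In 3 cases a library correlated best with the one of its own number. Whether equal numbers mark a pairing is not settled by these values. With the replicate block 16 genes passed, NTN4 was at 0.70 and SREBF1 lost its call (adjusted p = 0.0643, log2 fold change 0.74), as it did without the 3 libraries apart (adjusted p = 0.0897, log2 fold change 0.71).

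Signs of values near 0 turned. When 1 library was left out, NTN1 ranged from -0.09 to 0.09, NTN5 from -0.15 to 0.13, NEO1 from -0.01 to 0.11, UNC5D from -0.06 to 0.03, APPL1 from -0.05 to 0.10, VEZT from -0.02 to 0.13, AC018475.1 from -0.03 to 0.05 and SNRPF from -0.22 to 0.03. A pseudocount of 1 gave NTN1 0.00, one of 0.01 gave UNC5D 0.00, quantile normalization gave NTN1 and UNC5D 0.03 and AC018475.1 -0.02, library weights gave APPL1 and VEZT -0.01, voom gave NTN1 0.01, and leaving out the 3 libraries gave UNC5D 0.02 and SNRPF 0.08. None of these passed the threshold.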
